A study of Mus musculus with 10 samples.

Results

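Hmgcs1, Sqle, Idi1, Fdps, Lss, Cyp51 and Insig1 are targets of SREBP2, the transcription factor that keeps the cholesterol content of a cell near a set level. The genes were chosen by name for this role, with earlier results of these data known. Their Ensembl identifiers picked 7 of the 21939 genes in the deposited table, and all 7 were among the 13641 genes that passed the count filter and were tested. None of the 7 was called changed between any pair of genotypes, where 0.433% to 6.59% of all tested genes were called. This does not show that the genotypes were alike. The levels of the 7 moved largely together from library to library among the control and among the double knockout mice. In the single knockouts their directions were split.

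SREBP2 is made as a membrane protein of the endoplasmic reticulum, where it is bound to its escort SCAP. When sterols are plentiful, INSIG proteins hold SCAP in place. When sterols run low, SCAP carries SREBP2 to the Golgi apparatus, where proteases release the part that enters the nucleus and raises transcription of most enzymes on the way from acetyl-CoA to cholesterol. The liver is a main site of this synthesis, and hepatocytes also clear cholesterol by turning it into bile acids.

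The study asked what the transcription factors Nrf2 and NF-κB p65 do in hepatocytes, by comparing mice in which one or both were deleted there. Male mice aged 8 to 9 weeks were injected with AAV8Cre, an adeno-associated virus in which the hepatocyte-specific promoter of thyroxine-binding globulin drives Cre recombinase. Hepatocytes were isolated 12 days later by Liberase perfusion and Percoll separation, and poly-A RNA was sequenced. The strain was C57BL6/j in all 4 groups. The control mice (3 libraries) were also given AAV8Cre, so the virus was common to all 4 groups, whereas floxed alleles were carried by the other groups only. Mice with floxed Nrf2 alleles gave the libraries labelled Nrf2 KO (2 libraries), mice with floxed p65 alleles those labelled p65 KO (2 libraries), and mice with floxed alleles of both genes those labelled DKO (3 libraries). The promoter of the virus targets hepatocytes, so any other liver cell in a preparation was not a target of the deletion.

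The 10 libraries held between 33707165 and 49897382 estimated counts each. Counts over whole genes did not follow the labels. Nfe2l2, the gene for Nrf2, was higher in the libraries labelled Nrf2 KO by 1.21 on the log2 scale (SE 0.16, adjusted p = 0.0049 by edgeR's quasi-likelihood test with Benjamini-Hochberg adjustment) and in those labelled DKO by 1.02 (SE 0.14, adjusted p = 0.0035). Rela, the gene for p65, had 1221 to 1276 normalized counts in the control libraries, 1183 to 1209 in those labelled p65 KO and 1034 to 1488 in the DKO. A gene total pools all exons, floxed or not, so it does not show whether the floxed part was absent, and every direction below rests on the labels. The paper itself reported efficient deletion of both genes in isolated hepatocytes 12 days after injection, by RT-qPCR and Western blot. It also reported a strong fall of the targets Nqo1, Gclc and Saa3 in the respective knockouts. It does not say whether those mice were the ones sequenced. Nqo1, a textbook target of Nrf2 that was looked up after these values were seen, had 181 to 218 normalized counts in the control libraries, 63.0 to 84.0 in the Nrf2 KO, 199 to 207 in the p65 KO and 52.6 to 103 in the DKO.

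Hepatocyte markers were high in every library, with a sum over 10 markers such as Alb and Apoa1 of 3535587 to 5583822 normalized counts. Markers of other liver cells were present too and were not even across the groups. The sum of 12 Kupffer cell markers was 368 to 957 in the control libraries, 254 to 814 in the Nrf2 KO, 4516 to 6190 in the p65 KO and 1715 to 2905 in the DKO. By adjusted p, 11 of the 12 differed between the 4 genotypes, against 13.9% of all tested genes. The sum of 8 endothelial markers was 612 to 1288 in control, 787 to 1608 in the Nrf2 KO, 3034 to 4130 in the p65 KO and 1449 to 2269 in the DKO. For 8 stellate cell markers the sums were 145 to 344, 139 to 229, 1652 to 1687 and 271 to 748. By the same test 6 of 8 endothelial and 6 of 8 stellate markers differed between the genotypes. Clock genes differed as well. The summed level of Arntl, Npas2, Clock, Cry1 and Nfil3 was 3788 to 5297 in control, 2906 to 4817 in the Nrf2 KO, 1265 to 1375 in the p65 KO and 1851 to 2814 in the DKO, while 10 genes of the opposite phase, such as Per2 and Dbp, summed to 5084 to 11567, 8476 to 15329, 24386 to 28073 and 13776 to 20820. The part of these differences in the results below was not tested. In bulk RNA, fewer cells of a type and less RNA per cell cannot be told apart.

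Single libraries are given as normalized counts, that is, estimated counts divided by the library's effective size relative to the mean of all libraries. The word called is used for a gene whose adjusted p did not exceed 0.05 and whose log2 fold change reached 1 or −1. Fold changes come from 1 model over all 10 libraries, in which the groups share an estimate of the spread, and are given with their standard error (SE).

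Hmgcs1 acts early in the pathway, where it joins acetyl-CoA and acetoacetyl-CoA to HMG-CoA in the cytosol. Hmgcs1 (ENSMUSG00000093930, chromosome 13 from 120151915 to 120170470, plus strand, GRCm39) had 17244, 17185 and 9994 normalized counts in the control libraries, 11595 and 9372 in the Nrf2 KO, 10024 and 9483 in the p65 KO, and 14288, 6943 and 14614 in the DKO. Replicates 1 and 2 of the controls were the highest of all libraries, but control replicate 3 lay among the KO libraries, and each KO group overlapped the controls. Against control the log2 fold change was −0.50 (SE 0.31, adjusted p = 0.711 by edgeR) in the Nrf2 KO, −0.60 (SE 0.31, adjusted p = 0.214) in the p65 KO and −0.31 (SE 0.28, adjusted p = 0.538) in the DKO.

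Idi1 and Fdps make the isoprenoid building blocks that feed both sterols and other lipids such as ubiquinone side chains. Idi1 (ENSMUSG00000058258, chromosome 13 from 8935537 to 8942487, plus strand), which interconverts the 5-carbon isoprenoid units, had 12240, 10088 and 7788 normalized counts in control, 6920 and 7126 in the Nrf2 KO, 9423 and 10686 in the p65 KO, and 10451, 6642 and 10448 in the DKO. Both Nrf2 KO libraries were below all 3 controls, with a log2 fold change of −0.52 (SE 0.22, unadjusted p = 0.039), which did not pass the adjustment over all genes (adjusted p = 0.487 by edgeR). The Idi1 values in the p65 KO and the DKO overlapped those of the controls and differed from them by 0.0023 (SE 0.22) and −0.13 (SE 0.19) on the log2 scale.

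Fdps (ENSMUSG00000059743, chromosome 3 from 89000888 to 89019213, minus strand), which condenses these units to farnesyl diphosphate, had 12444, 12451 and 9060 normalized counts in control, 11963 and 12321 in the Nrf2 KO, 9020 and 12536 in the p65 KO, and 18541, 8938 and 21124 in the DKO. DKO replicates 1 and 3 were the highest of all libraries and DKO replicate 2 the lowest. The DKO differed from control by 0.52 on the log2 scale (SE 0.27, adjusted p = 0.286 by edgeR). Without DKO replicate 2 this difference was 0.81 with an adjusted p of 0.035, and that against the p65 KO was 0.88 with an adjusted p of 0.036, so 1 library decided whether Fdps passed by adjusted p, and neither value reached the fold criterion. Without DKO replicate 3 the difference from control was 0.28.

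Sqle, Lss and Cyp51 act on the sterol part of the pathway. Sqle, squalene epoxidase (ENSMUSG00000022351, chromosome 15 from 59186869 to 59203043, plus strand), catalyses an early oxygen-dependent and rate-limiting step. It had 3599, 3339 and 2645 normalized counts in control, 2263 and 2511 in the Nrf2 KO, 3545 and 4097 in the p65 KO, and 4304, 2490 and 4044 in the DKO. The Nrf2 KO libraries were below all controls and below both p65 KO libraries. The fold change on the log2 scale was −0.42 (SE 0.22, adjusted p = 0.614 by edgeR) in the Nrf2 KO against control, 0.26 (SE 0.21, adjusted p = 0.432) in the p65 KO and 0.18 (SE 0.19, adjusted p = 0.618) in the DKO.

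Lss (ENSMUSG00000033105, chromosome 10 from 76367298 to 76392976, plus strand), which folds the epoxide into lanosterol, had 2452, 2869 and 2021 normalized counts in control, 2446 and 2311 in the Nrf2 KO, 2996 and 2689 in the p65 KO, and 3481, 2181 and 4394 in the DKO. DKO replicates 1 and 3 were again the highest of all libraries, and DKO replicate 2 was within the control range. The DKO was higher than control by 0.45 in the fit (SE 0.22, adjusted p = 0.24 by edgeR), without DKO replicate 2 by 0.69 with an adjusted p of 0.042, and without DKO replicate 3 by 0.21.

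Cyp51 (ENSMUSG00000001467, chromosome 5 from 4123416 to 4154751, minus strand), the lanosterol demethylase, had 7736, 6718 and 5846 normalized counts in control, 5249 and 5308 in the Nrf2 KO, 6135 and 6800 in the p65 KO, and 6228, 4523 and 6973 in the DKO. As for Idi1 and Sqle, the Nrf2 KO libraries lay below all controls, with a log2 fold change of −0.36 (SE 0.18, adjusted p = 0.601 by edgeR). The p65 KO and the DKO differed from control by −0.07 (SE 0.18) and −0.20 (SE 0.16).

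Insig1 is no enzyme but a brake of the pathway, since its protein retains SCAP when sterols are high, and the gene is itself induced by SREBP2. Insig1 (ENSMUSG00000045294, chromosome 5 from 28276315 to 28283668, plus strand) had 17444, 15921 and 13263 normalized counts in control, 18388 and 15106 in the Nrf2 KO, 13771 and 13414 in the p65 KO, and 12086, 10883 and 17634 in the DKO. All groups overlapped the controls. The differences from control were 0.11 (SE 0.20), −0.19 (SE 0.20) and −0.20 (SE 0.18) on the log2 scale, with adjusted p-values of 0.93, 0.547 and 0.542 by edgeR.

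**Figure D1:**
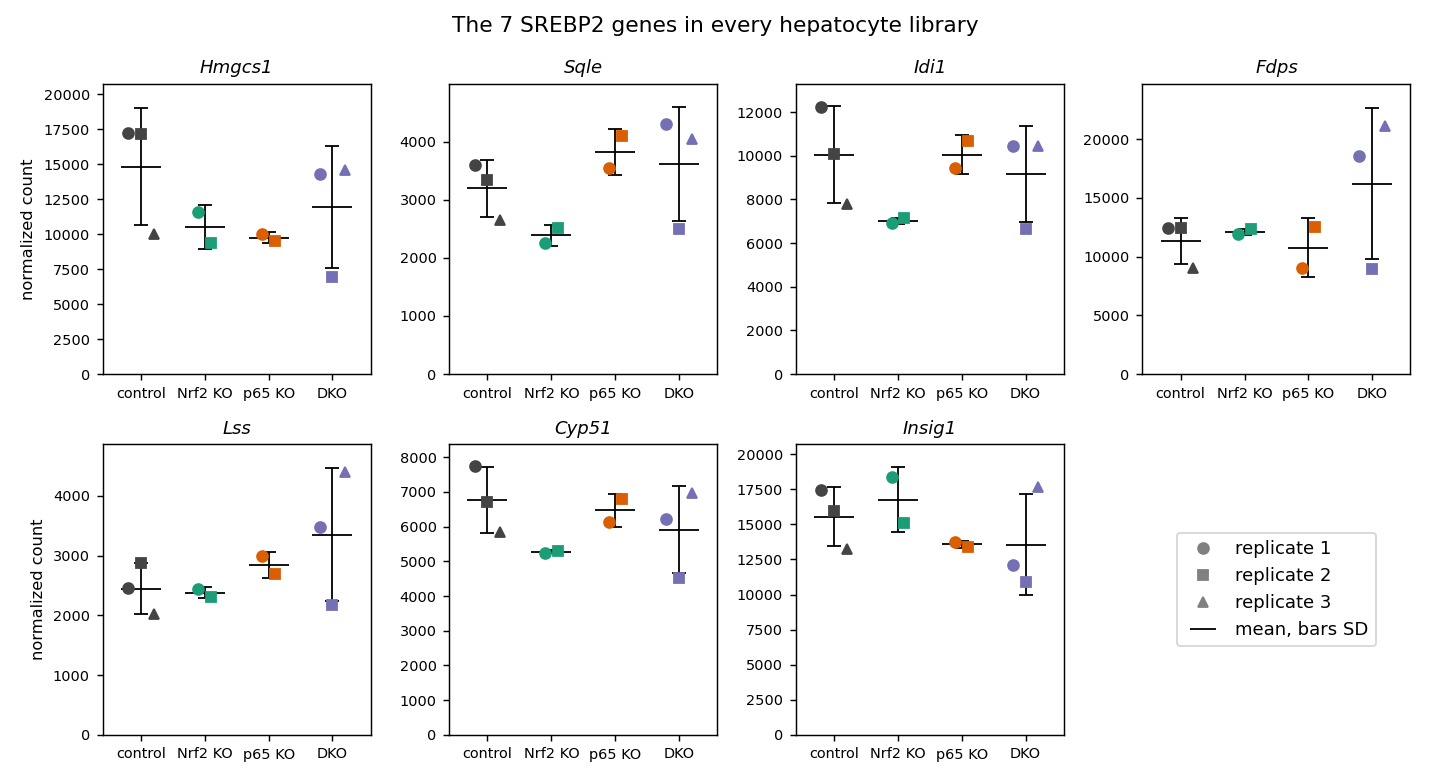
Normalized counts (y axis, linear from 0) of the 7 genes in the 10 libraries by genotype label (x axis); marker shapes give the replicate, horizontal ticks the group mean and bars the SD (n = 3, 2, 2 and 3). Control replicate 3 and DKO replicate 2 are the lowest of their groups in all 7 panels, and the 2 Nrf2 KO libraries lie below the controls for Sqle, Idi1 and Cyp51.

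Per kilobase of the canonical transcript, Fdps was the most abundant of the set with a mean over all libraries of 9832 normalized counts (range 6844 to 16175). It was followed by Insig1 (5400, range 3973 to 6713), Idi1 (3545, range 2564 to 4726) and Hmgcs1 (2947, range 1695 to 4209). Cyp51 (1238, range 910 to 1557), Sqle (1170, range 806 to 1533) and Lss (436, range 317 to 689) were the lowest. The range over libraries of Fdps lay above that of Insig1, that of Hmgcs1 above that of Cyp51, and that of Sqle above that of Lss. The neighbours Insig1 and Idi1, Idi1 and Hmgcs1, and Cyp51 and Sqle overlapped. Sequence shared with other annotated transcripts limits 2 of these levels most, since 18.4% of the 31-base words of Idi1 also occur elsewhere, 17.9% of them in the pseudogene Idi1-ps1, and 14.6% of those of Fdps, 11% in Gm3571. The shares were 8.27% for Hmgcs1 and at most 4.38% for the other 4 genes.

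The start sites of the genes are shown for the motifs through which this pathway is known to be read, the sterol regulatory element bound by SREBP and the CCAAT box bound by NF-Y, a common partner of SREBP. RefSeq windows (GRCm38.p6) were at hand for 5 of the 7 members, and the 250 bases before the start site were searched on both strands. The letters TCACNCCAC, most of that element, were in 1.05% of 32851 windows and, among the 5, in that of Hmgcs1, where the match begins 137 bases before the start site. CCAAT was in 33.8% of all windows and in each of the 5, with 3 matches for Hmgcs1, 2 for Idi1 and 1 each for Lss, Cyp51 and Insig1. The windows of 4 genes follow, those of Hmgcs1 as the 1 with the TCACNCCAC match, of Idi1 and Cyp51 as the pair whose levels were most alike, and of Insig1 as the gene least like the rest. Capitals mark CCAAT, or ATTGG where it lies on the other strand, and TCACNCCAC. The windows are chr13:119690101-119690350 (plus strand) for Hmgcs1, chr13:8885356-8885605 (plus strand) for Idi1, chr5:4104698-4104947 (minus strand) for Cyp51 and chr5:28071162-28071411 (plus strand) for Insig1, each written 5′ to 3′.
Hmgcs1: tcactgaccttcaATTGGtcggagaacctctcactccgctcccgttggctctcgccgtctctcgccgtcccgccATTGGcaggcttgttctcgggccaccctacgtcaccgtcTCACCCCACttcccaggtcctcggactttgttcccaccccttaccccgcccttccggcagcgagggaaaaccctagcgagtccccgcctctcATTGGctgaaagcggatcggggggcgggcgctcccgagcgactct
Idi1: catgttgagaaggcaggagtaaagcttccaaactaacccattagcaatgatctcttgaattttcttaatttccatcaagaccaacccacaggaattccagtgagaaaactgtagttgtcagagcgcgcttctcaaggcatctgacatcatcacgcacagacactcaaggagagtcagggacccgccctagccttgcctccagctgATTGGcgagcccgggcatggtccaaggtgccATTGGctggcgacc
Cyp51: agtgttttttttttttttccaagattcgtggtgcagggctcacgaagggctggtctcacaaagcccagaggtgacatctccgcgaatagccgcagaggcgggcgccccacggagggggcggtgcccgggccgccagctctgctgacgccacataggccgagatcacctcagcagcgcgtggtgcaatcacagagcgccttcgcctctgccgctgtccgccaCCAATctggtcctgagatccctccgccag
Insig1: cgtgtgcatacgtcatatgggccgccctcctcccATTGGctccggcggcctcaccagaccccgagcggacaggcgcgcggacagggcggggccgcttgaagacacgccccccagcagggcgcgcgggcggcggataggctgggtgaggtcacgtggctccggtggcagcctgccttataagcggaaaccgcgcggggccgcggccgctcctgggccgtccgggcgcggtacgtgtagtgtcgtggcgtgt
A match describes letters in the window and is neither a bound site nor a cause of the levels.

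Counted over the set, 0 of 7 genes were called in the libraries labelled Nrf2 KO against control, where 0.55% of all tested genes were called by edgeR. At an unadjusted p under 0.05, 1 of 7 passed by edgeR, DESeq2 and limma (Idi1), against 9.38% of all genes by edgeR. The libraries of the groups did not overlap for 3 of 7 genes, all lower in the Nrf2 KO (Sqle, Idi1 and Cyp51), against 28.5% of all genes in either direction and 13.6% in the lower one. The median log2 fold change of the 7 was −0.36, and that of all tested genes 0.0018.

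In the p65 KO against control, 0 of 7 genes were called, against 6.59% of all genes, and 0 of 7 had libraries that did not overlap, against 50% of all genes. By edgeR, DESeq2 and limma 0 of 7 reached an unadjusted p under 0.05, which 31.6% of all genes did by edgeR. The fold changes ran from −0.60 for Hmgcs1 to 0.26 for Sqle on the log2 scale, with a median of −0.07. Scaling to equal library totals turned the sign of 2 values close to 0, those of Fdps (−0.07 to 0.10) and Cyp51 (−0.07 to 0.11), where it moved the median of genes with at least 50 normalized counts from −0.06 to 0.12.

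In the DKO against control, 0 of 7 were called, against 2.38% of all genes, and 0 of 7 separated the libraries of the groups, against 26.5%. None passed an unadjusted p of 0.05 by edgeR or limma (0 of 7) and 2 of 7 by DESeq2, Fdps and Lss, against 22.5% of all genes by edgeR. The 3 comparisons with control share the same 3 control libraries, so control replicate 3, the lowest of its group throughout, enters each of them.

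Between the KO groups, the largest difference was that of Sqle, which was higher in the p65 KO than in the Nrf2 KO by 0.68 on the log2 scale (SE 0.23, 95% confidence interval 0.16 to 1.2, adjusted p = 0.087 by edgeR). With DESeq2 its adjusted p was 0.030, with equal library totals 0.037, without DKO replicate 2 0.025, and it was 0.027 with only these groups in the fit, where Idi1 had 0.52 with an adjusted p of 0.042. None of the 7 was called in this comparison, against 5.19% of all genes, and 5 of 7 had libraries that did not overlap (Sqle, Idi1, Lss and Cyp51 higher and Insig1 lower in the p65 KO), against 62.4% of all genes. At an unadjusted p under 0.05 there was 1 of 7 by edgeR and limma (Sqle) and 2 of 7 by DESeq2 (Sqle and Idi1), against 28.6% of all genes by edgeR.

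The DKO against the Nrf2 KO gave 0 of 7 calls, against 0.433% of all genes. Sqle was higher in the DKO by 0.60 (SE 0.22, unadjusted p = 0.019, adjusted p = 0.239 by edgeR), the only member past an unadjusted p of 0.05 by edgeR and limma, to which DESeq2 added Lss, against 14.4% of all genes by edgeR. The DKO against the p65 KO gave 0 of 7 calls, against 1.78% of all genes, with 0 of 7 at an unadjusted p under 0.05 by edgeR and limma and 1 of 7 by DESeq2 (Fdps), against 22.5% of all genes by edgeR. The interaction asks whether the difference made by the floxed p65 alleles was the same with and without floxed Nrf2 alleles. It was called for 0 of 7, against 0.455% of all genes, with 0 of 7 under an unadjusted p of 0.05 by all 3 tools, against 13.8% of all genes by edgeR. By adjusted p alone, without the fold criterion, 0 of 7 passed in each comparison by edgeR and limma, and DESeq2 passed 1 of 7 (Sqle) in the p65 KO against the Nrf2 KO and 0 of 7 in the others. By edgeR 0.726% (Nrf2 KO), 14.9% (p65 KO) and 5.45% (DKO) of all genes passed against control, 10.4% in the p65 KO against the Nrf2 KO, 0.513% and 4.11% in the DKO against the Nrf2 KO and the p65 KO, and 0.469% in the interaction. A single test for any difference between the 4 genotypes found 0 of 7 at an adjusted p of 0.05, where 13.9% of all genes passed.

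These values bound the size of a difference but do not show that the genotypes were alike. Over the 6 comparisons of genotypes the 7 genes gave 42 log2 fold changes, of which 32 had a 95% confidence interval within −1 to 1 and 3 an interval that excluded 0. The intervals that reached 1 in either direction belonged to Hmgcs1, Idi1, Fdps, Sqle and Lss. For Hmgcs1 the interval in the p65 KO against control ran from −1.29 to 0.09.

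**Figure D2:**
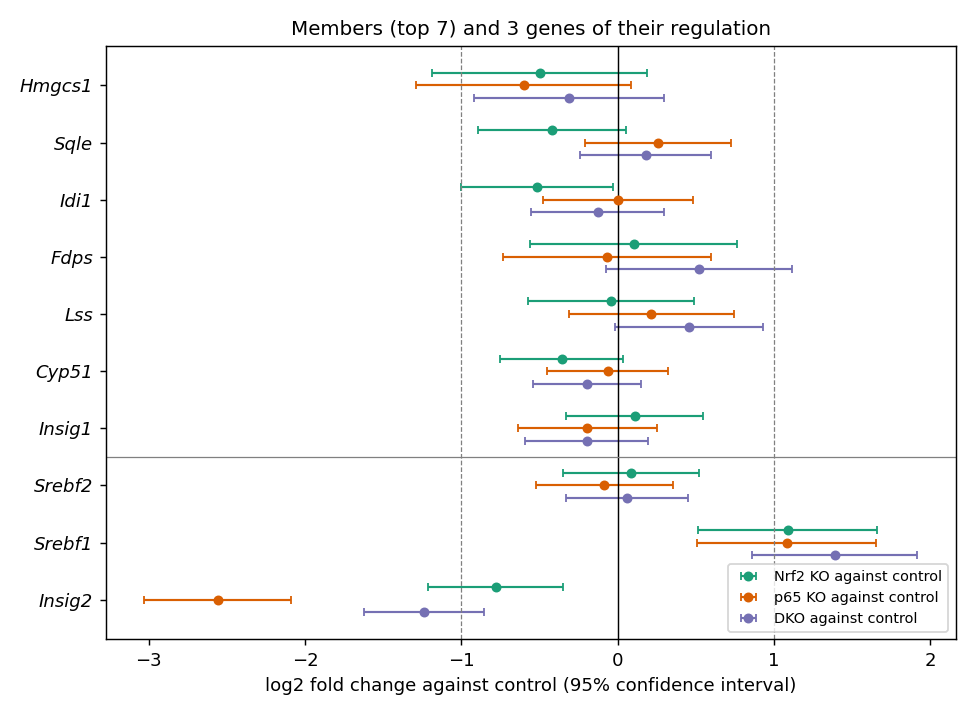
Log2 fold change against control (x axis, points) with its 95% confidence interval (bars) for the 7 genes and, under the line, Srebf2, Srebf1 and Insig2, in the libraries labelled Nrf2 KO (green), p65 KO (orange) and DKO (purple). Dashed lines mark the fold criterion of 1; for the 7 genes the points lie between −0.60 and 0.52, while Insig2 is at −2.56 in the p65 KO.

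The spread between mice of 1 genotype was larger for these genes than for most. The residual SD within genotypes had a median of 0.29 on the log2 scale for the 7, against 0.18 over the 10185 genes that averaged 50 or more normalized counts. Genotype accounted for a median of 33.8% of the sum of squares for the 7 and 56.5% for those genes. These shares were not corrected for the number of genotypes. With so few libraries in each genotype, a sizeable share arises even where genotype has no effect. The 33.8% is therefore no evidence that genotype affected the 7.

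This spread was largely shared among the 7 in the control and DKO groups. DKO replicate 2 was the lowest of the DKO libraries for 7 of 7 members and for 21 of 22 cholesterol synthesis enzymes, whereas it was the lowest for 34.8% of those 10185 genes. The 22 enzymes include every member but Insig1, so the counts overlap. Control replicate 3 was the lowest control for 7 of 7 members and 16 of 22 enzymes, and for 32.1% of all such genes. Relative to the geometric mean of its own group, Hmgcs1 was at 0.61 in DKO replicate 2 and 1.29 in DKO replicate 3. Fdps was at its lowest of all libraries in DKO replicate 2 and at its highest in DKO replicate 3.

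**Figure D3:**
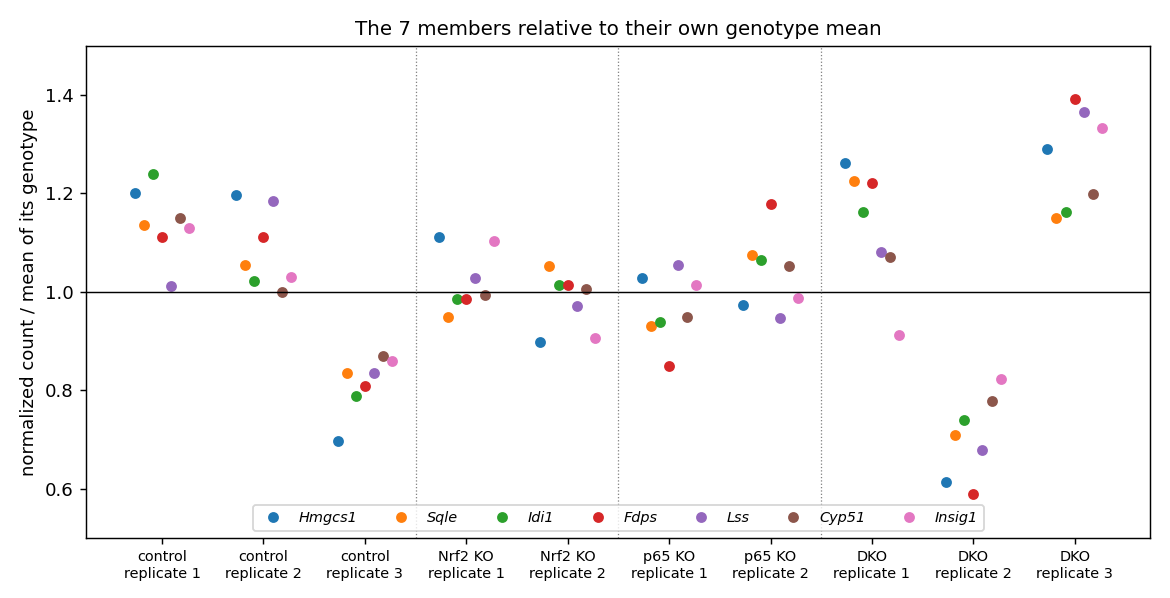
Normalized count of each of the 7 genes divided by the geometric mean of its own genotype (y axis) in the 10 libraries (x axis). Colours mark the genes and the line at 1 that mean. All 7 points of control replicate 3 and of DKO replicate 2 lie below 1, and all 7 of DKO replicate 3 lie above it.

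The 21 pairs of members were compared by Pearson's r over the 10 libraries, which share the same mice and preparation, and the values are a description. After subtraction of the genotype means from log2 levels, r was above 0 in 21 of 21 pairs, with a median of 0.87 and a range of 0.57 to 0.97. The genotype means included, the median was 0.58, the highest value 0.95 (Idi1 and Cyp51, Spearman's rho 0.94) and the lowest −0.03 (Sqle and Insig1, rho −0.14). Without the 2 libraries whose mean member level was farthest from the median, DKO replicates 2 and 3, the median within genotypes was 0.72 and r was above 0 in 21 of 21 pairs, with a lowest value of 0.38, whereas with the genotype means included the median was 0.36 and r was above 0 in 17 of 21. With DKO replicates 2 and 3 left out, the remaining DKO library equals its own mean, so the values within genotypes rest on the other groups. Without DKO replicate 2 alone the median within genotypes was 0.69, the lowest value 0.22 and r above 0 in 21 of 21 pairs. Insig1 was in each of the 5 pairs with the lowest r over all libraries.

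The genes outside the set that followed it most were ranked by Pearson's r with the mean standardized level of the 7 among 10178 genes that averaged 50 or more normalized counts. Mvd, which makes isopentenyl diphosphate, came first with r = 0.96 (rho 0.96) over the 10 libraries. Elovl1, a fatty acid elongase, had 0.91, Fdft1, squalene synthase, 0.90, Tmem68 0.90, and Nsdhl and Msmo1, which remove methyl groups from the sterol ring, 0.90 and 0.89. Mob3a had 0.87, Katnbl1 0.87, Gpatch4 0.86 and Acat2, the cytosolic thiolase that makes acetoacetyl-CoA, 0.86. Thus 5 of these 10 genes were enzymes of the same pathway. Over the 16 synthesis enzymes that are not members the median r was 0.63 and r was above 0 in 16 of 16, while the median over all candidates was −0.0013. Within genotypes the median r with the members' mean deviation was 0.78 for these 16 enzymes and 0.03 for all genes.

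**Figure D4:**
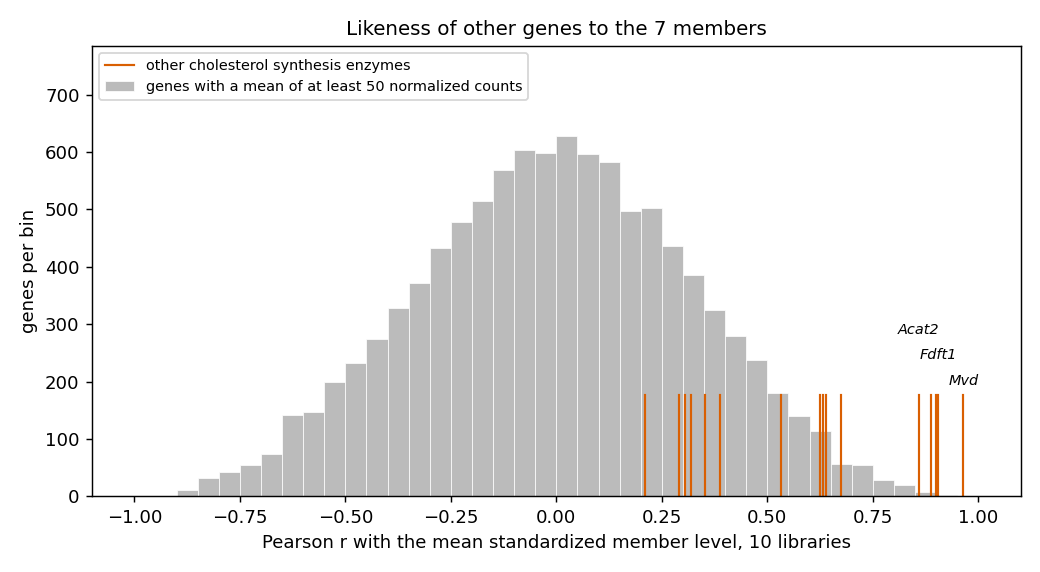
Number of genes per bin of 0.05 (y axis) by Pearson's r with the mean standardized level of the 7 genes over the 10 libraries (x axis), for 10178 genes averaging 50 or more normalized counts; orange lines mark the 16 other cholesterol synthesis enzymes. All 16 lines lie above 0, with Mvd at 0.96.

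The wider pathway was counted by the same criteria. Of the 22 enzymes from thiolase to cholesterol, which include every member but Insig1, 0 of 22 were called in each of the 6 comparisons and in the interaction, also by DESeq2 and limma. By edgeR the share of all genes called there ran from 0.433% to 6.59%, so few calls were to be had in a list of this length. By adjusted p alone, 3 of 22 were higher in the p65 KO than in control, against 8.13% of all genes in that direction, among them the sterol scaffold gene Erg28 by 0.49 on the log2 scale (SE 0.14, adjusted p = 0.039 by edgeR). Erg28 had 2136, 2117 and 2163 normalized counts in control and 2936 and 3050 in the p65 KO, without overlap. In the Nrf2 KO and the DKO against control 0 of 22 passed by adjusted p alone by edgeR, against 0.726% and 5.45% of all genes. At an unadjusted p under 0.05 there were 2 of 22 in the Nrf2 KO by edgeR, DESeq2 and limma, against 9.38% of all genes by edgeR, and in the DKO 3 of 22 by edgeR and limma and 5 of 22 by DESeq2, against 22.5%.

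Several genes that control SREBP2 or use its product did change. Srebf2, the gene for SREBP2 itself, had 1474, 1811 and 1432 normalized counts in control, 1981 and 1360 in the Nrf2 KO, 1601 and 1364 in the p65 KO, and 1569, 1346 and 1993 in the DKO. The groups overlapped, and the differences from control were 0.09 (SE 0.20), −0.09 (SE 0.20) and 0.06 (SE 0.18) on the log2 scale, with adjusted p-values of at least 0.805 by edgeR. Of 12 genes of the SREBP machinery, 2 were called in the p65 KO and 2 in the DKO against control, Insig2 and Srebf1 in both, where 6.59% and 2.38% of all genes were. In the Nrf2 KO 0 of 12 were called by edgeR and limma and 1 of 12 by DESeq2, with 4 of 12 at an unadjusted p under 0.05 by each tool, against 9.38% of all genes by edgeR.

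Insig2, whose protein retains SCAP as that of Insig1 does, had 9977, 13740 and 9518 normalized counts in control, 7361 and 5528 in the Nrf2 KO, 1766 and 1997 in the p65 KO, and 5461, 4595 and 4040 in the DKO. Every KO library was below every control, and the p65 KO libraries were the lowest of all. Insig2 fell by 2.56 on the log2 scale in the p65 KO (SE 0.21, adjusted p = 0.00053 by edgeR) and by 1.24 in the DKO (SE 0.17, adjusted p = 0.0035), and was −0.78 in the Nrf2 KO (SE 0.20, adjusted p = 0.139). It was higher in the DKO than in the p65 KO by 1.32 (SE 0.20, adjusted p = 0.0092), and the interaction was 2.10 (SE 0.28, adjusted p = 0.012). The call between the DKO and the p65 KO was lost without p65 KO replicate 1 (1.23, adjusted p = 0.081) or replicate 2 (1.41, adjusted p = 0.064). Insig1 did not show this order, with 13592 ± 253 (SD, n = 2) in the p65 KO and 13534 ± 3601 (SD, n = 3) in the DKO.

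Srebf1, the gene of the related factor that drives fatty acid synthesis, had 4195, 5902 and 4239 normalized counts in control, 8791 and 11505 in the Nrf2 KO, 9022 and 11185 in the p65 KO, and 10478, 9397 and 17623 in the DKO. All KO libraries were above all controls. It rose by 1.08 in the p65 KO (SE 0.26, adjusted p = 0.021 by edgeR) and by 1.39 in the DKO (SE 0.24, adjusted p = 0.010), and was 1.09 in the Nrf2 KO (SE 0.26, adjusted p = 0.115). The rise in the p65 KO lost its call when any of 4 libraries was left out, and then lay between 0.92 and 1.23. These were control replicates 1 and 3 and both p65 KO replicates. The rise in the DKO lost its call without control replicate 1 (1.30, adjusted p = 0.054).

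Of 11 other SREBP2 targets tested, 0 were called in the comparisons with control by edgeR, DESeq2 or limma, and at an unadjusted p under 0.05 edgeR gave 0 in the Nrf2 KO, 5 in the p65 KO and 1 in the DKO, against 9.38%, 31.6% and 22.5% of all genes. By adjusted p alone 3 of 11 differed in the p65 KO, against 14.9% of all genes, among them Stard4, a carrier of cholesterol between membranes, which was higher by 0.80 (SE 0.13, adjusted p = 0.0049 by edgeR), and Tmem97, a sterol-regulated membrane protein, higher by 0.57 (SE 0.16, adjusted p = 0.037). Stard4 had 3885, 4555 and 4403 normalized counts in control, 7001 and 7886 in the p65 KO, and 4166, 4214 and 5203 in the DKO, so the p65 KO libraries stood above both groups. It was lower in the DKO than in the p65 KO by −0.72 (SE 0.13, adjusted p = 0.020).

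Genes that dispose of cholesterol were called in part. Cyp7a1, the rate-limiting enzyme of bile acid synthesis, had 539, 1236 and 704 normalized counts in control, 2550 and 1799 in the Nrf2 KO, 3882 and 10954 in the p65 KO, and 4044, 3393 and 15217 in the DKO. It rose by 3.17 in the p65 KO (SE 0.64, adjusted p = 0.011 by edgeR) and by 3.19 in the DKO (SE 0.61, adjusted p = 0.016), and was 1.39 in the Nrf2 KO (SE 0.62, adjusted p = 0.521). Each KO library was above each control, with 1 library far above the rest in the p65 KO and in the DKO. The call was lost in the p65 KO without p65 KO replicate 2 (2.23, adjusted p = 0.072) and in the DKO without control replicate 1 (2.96, adjusted p = 0.076) or control replicate 3 (3.09, adjusted p = 0.0505). Without DKO replicate 3 the rise in the DKO was 2.18 and stayed called.

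Soat1, the cholesterol acyltransferase of macrophages and most other tissues, had 3.31, 12.8 and 6.54 normalized counts in control, 129 and 69.0 in the p65 KO, and 13.7, 28.1 and 3.43 in the DKO, and rose by 3.68 in the p65 KO (SE 0.74, adjusted p = 0.011 by edgeR). Both p65 KO libraries were above every control and DKO library, but without p65 KO replicate 1 the call was lost (3.16, adjusted p = 0.10). The Kupffer cell markers were highest in the same libraries, and their part in the Soat1 value was not tested. Nceh1, a hydrolase of cholesterol esters, fell in the Nrf2 KO by 1.29 (SE 0.21, adjusted p = 0.018) and in the DKO by 1.03 (SE 0.18, adjusted p = 0.010), from 1146, 1029 and 971 normalized counts in control to 416 and 444 in the Nrf2 KO and 480, 412 and 649 in the DKO. The Nrf2 KO call was lost without any of 4 libraries, control replicates 1 and 2 and both Nrf2 KO replicates, with adjusted p-values of 0.059 to 0.237, and that in the DKO missed the fold criterion without control replicate 1, DKO replicate 1 or DKO replicate 2, at −0.96, −0.98 and −0.89, and with upper-quartile scaling, at −0.99. With the replicate number as a block the adjusted p in the Nrf2 KO was 0.062. Of the 10 genes of cholesterol storage and conversion, edgeR called 1 in the Nrf2 KO, 2 in the p65 KO and 2 in the DKO against control, where 0.55%, 6.59% and 2.38% of all genes were called. DESeq2 called 2 in each of the 3.

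Of 10 genes of sterol efflux and LXR response, 4 differed between the 4 genotypes by adjusted p by edgeR, against 13.9% of all genes. These were Abcg5, Abcg8, Mylip and Lpcat3. Abcg5 had 2542, 2332 and 3040 normalized counts in control and 1614 and 1800 in the Nrf2 KO. In the p65 KO it had 2616 and 2534, and in the DKO 1564, 1869 and 1588. Abcg8 had 3776, 3840 and 5043 in control and 2611 and 3072 in the Nrf2 KO. In the p65 KO it had 4156 and 3640, and in the DKO 2245, 2895 and 2404. In the comparisons with control 1 gene was called, Mylip, an E3 ubiquitin ligase induced by LXR, in the p65 KO, where 6.59% of all genes were. It had 33.1, 23.6 and 35.5 normalized counts in control and 150 and 94.5 in the p65 KO, a rise of 1.99 (SE 0.39, adjusted p = 0.0098 by edgeR) that was lost without p65 KO replicate 1 (1.62, adjusted p = 0.10).

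**Figure D5:**
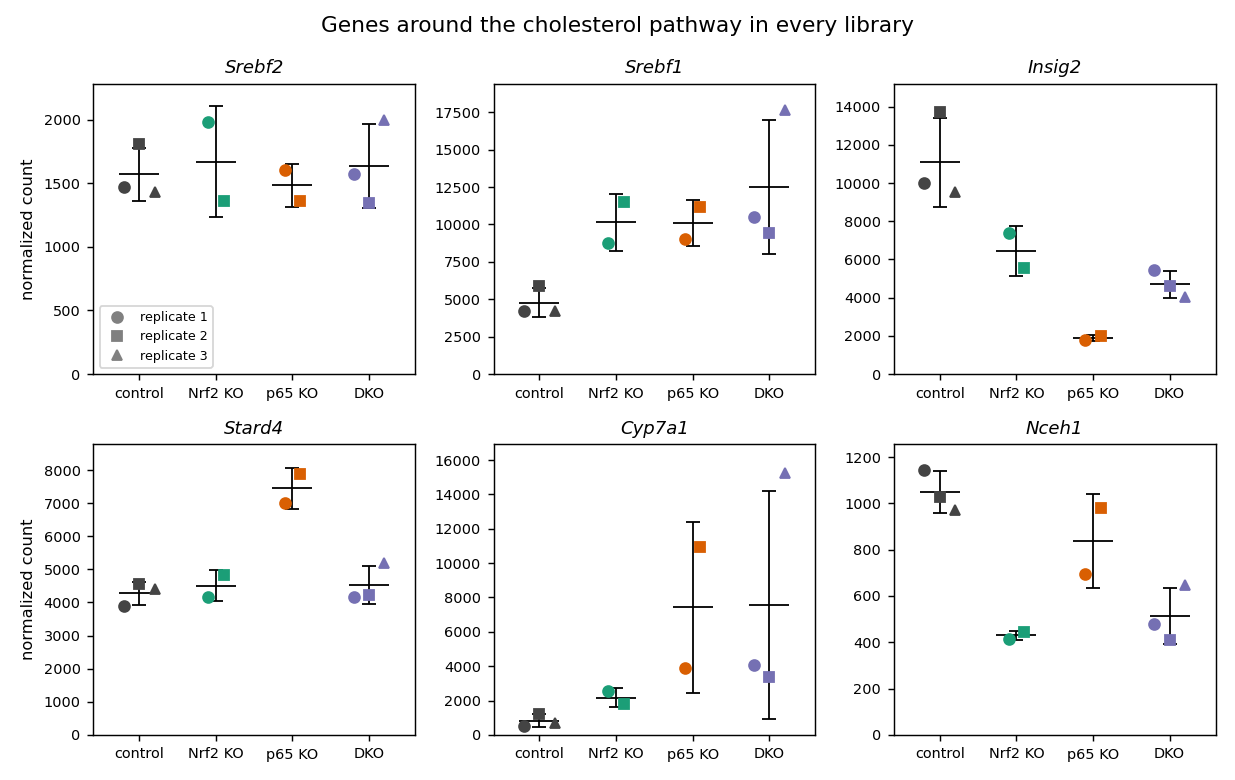
Normalized counts (y axis, linear from 0) of 6 genes around the pathway in the 10 libraries by genotype label (x axis); marker shapes give the replicate, horizontal ticks the group mean and bars the SD. Srebf2 overlaps between all groups, Insig2 is lowest in the p65 KO (1766 and 1997), and Nceh1 is lower in the Nrf2 KO (416 and 444) than in every control library.

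The lipogenic genes, which answer mainly to SREBP1c, were called for 2 of 13 in the p65 KO and 3 of 13 in the DKO against control, where 6.59% and 2.38% of all genes were. In the Nrf2 KO 0 of 13 were called by edgeR and limma and 1 of 13 by DESeq2, with 4 of 13 at an unadjusted p under 0.05 by each tool, against 9.38% of all genes by edgeR. Thrsp, a lipogenic regulator, rose by 1.89 in the p65 KO (SE 0.44, adjusted p = 0.019 by edgeR) and by 2.30 in the DKO (SE 0.41, adjusted p = 0.012). Fasn, fatty acid synthase, rose by 1.38 in the DKO (SE 0.33, adjusted p = 0.036), Me1, a source of NADPH, fell there by 1.39 (SE 0.36, adjusted p = 0.048), and Elovl5, an elongase, fell by 1.31 in the p65 KO (SE 0.33, adjusted p = 0.024). The summed level of the 13 genes was lowest of all libraries in DKO replicate 2 (297329) and highest in DKO replicate 3 (1039243), the same libraries that held the extremes of the member mean. Scd1, a desaturase, made up most of that sum, and without it DKO replicate 3 was still the highest (249965) but control replicate 1 was the lowest (89414), below DKO replicate 2 (105161). These lipogenic calls depended on single libraries and, for Fasn and Me1, also on the processing. Leaving out 1 library in turn ended the call of Thrsp in the p65 KO in 3 of 10 fits (control replicates 1 and 3 and p65 KO replicate 2) and in the DKO in 1 of 10 (control replicate 1), that of Elovl5 in 4 of 10 (control replicates 2 and 3 and both p65 KO replicates), that of Fasn in 8 of 10 (all but control replicate 2 and DKO replicate 2) and that of Me1 in 9 of 10 (all but DKO replicate 3), with adjusted p-values up to 0.117, 0.064, 0.142, 0.140 and 0.126. With only the genotypes compared in the fit the adjusted p was 0.077 for Fasn and 0.073 for Me1, with the replicate number as a block 0.087 and 0.060, and for Me1 it was 0.051 with a filter on the mean count and 0.053 with upper-quartile scaling.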

How the data were processed

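RNA of freshly isolated hepatocytes was sequenced in 10 libraries of 4 genotypes, taken here as separate mice of each group. The authors quantified single-end reads with Salmon 1.10.3 against GRCm39 and the GENCODE M33 gene models. The deposited table holds whole numbers and is named normalized, but library totals differ and scale with the size factors (0.879 to 1.26), so the values were treated as estimated counts per gene, rounded by the authors, and normalized here. No table column was left without a sample (0 columns).

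Genes whose counts reached a sum of 10 across libraries entered edgeR 4.0.16 (TMM scaling, quasi-likelihood F test, all 10 libraries in 1 model, Benjamini-Hochberg adjustment over 13641 genes) in R 4.3.3. A call needed an adjusted p up to 0.05 and a log2 fold change that reached 1 or −1. The script was tested on simulated counts. Alternatives were DESeq2 1.42.0, limma-trend 3.58.1 on log2 values with pseudocounts of 0.5, 1 and 10, other scalings and count filters, fits of the compared genotypes only, a replicate block, and leaving out each library. Alternatives for genes outside the set, and the pair correlations without single libraries, were added after the data were seen.

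The members and gene lists were chosen with earlier results of these data known. Genes named besides the members are the targeted genes, the SREBP genes and Insig2, list genes called in the comparison described (at most the 5 largest changes a list), and the 10 genes most like the member mean. Others are named as examples or members of an adjusted p count (Erg28, Stard4, Tmem97, Abcg5, Abcg8, Lpcat3) or as markers. With 2 or 3 libraries a group, p-values measure the spread between these libraries. Gene positions and transcript lengths come from GENCODE M39 (GRCm39), with 21926 of 21939 identifiers matched, and start site windows from RefSeq (GRCm38.p6). Some items are not reported here.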

Additional observations from a re-analysis of the deposited data

Results flagged for a closer look

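The interaction, that is, the difference between the effect of the floxed p65 alleles with and without floxed Nrf2 alleles, was past the threshold for Insig2 and for none of the 7 SREBP2 targets. It was called for 0.455% of all genes. For Insig2 it was 2.1 on the log2 scale, since the level in the libraries labelled p65 KO was below control by more than that in the DKO was below the Nrf2 KO. It kept its call in 15 of 18 alternatives and lost it without Nrf2 KO replicate 2, p65 KO replicate 1 or p65 KO replicate 2 (adjusted p up to 0.106 by edgeR).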

How the results depend on the processing

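The count of members called (0 of 7) and of synthesis enzymes called (0 of 22) was the same in every comparison under all alternatives run. In the main fit 0.433% to 6.59% of all genes were called in these comparisons. By adjusted p alone, leaving out DKO replicate 2 added Fdps and Lss in the DKO against control, Fdps in the DKO against the p65 KO, and Sqle in the p65 KO against the Nrf2 KO. Each member had 2021 or more normalized counts in each library, so the 2 or 3 mice a group, and not the depth, limit the precision. Some member fold changes (log2) changed sign, the largest of them, as reported, 0.24 for Lss in the DKO against the p65 KO, 0.23 for Cyp51 in the interaction and -0.17 for Fdps in the p65 KO against the Nrf2 KO. With equal library totals, which moved the median of genes with at least 50 normalized counts from 0.03 to -0.24 in the DKO against the p65 KO, they became, in the p65 KO against control, 0.10 for Fdps and 0.11 for Cyp51, against the Nrf2 KO 0.063 for Hmgcs1 and 0.0020 for Fdps, in the DKO against the p65 KO -0.041 for Lss, and in the interaction -0.052 for Cyp51. Insig1 in the DKO against the p65 KO became 0.015 with upper-quartile scaling and 0.0025 with only the genotypes compared. The replicate numbers shared by the groups did not mark a shared litter or day in the labels, so they were not used to pair samples in the main fit. Deviations of same-numbered libraries correlated between -0.232 and 0.113. Deviations within a group sum to 0, so these few values cannot decide whether a litter or day was shared. With the replicate block 0 of 7 members were called in each comparison, and Idi1 in the p65 KO against control became -0.0083. Leaving out 1 library in turn, the values ranged in the Nrf2 KO against control from -0.040 to 0.18 for Fdps, -0.17 to 0.089 for Lss and -0.041 to 0.24 for Insig1. In the p65 KO against control they ranged from -0.16 to 0.17 for Idi1, -0.33 to 0.15 for Fdps and -0.16 to 0.042 for Cyp51, and in the DKO from -0.28 to 0.058 for Idi1. In the p65 KO against the Nrf2 KO the range was -0.25 to 0.06 for Hmgcs1 and -0.43 to 0.047 for Fdps. In the DKO against the p65 KO it was -0.22 to 0.13 for Sqle, -0.23 to 0.055 for Idi1, -0.00084 to 0.47 for Lss, -0.26 to 0.029 for Cyp51 and -0.24 to 0.13 for Insig1, and in the interaction -0.34 to 0.035 for Insig1.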
